A study of Mus musculus with 8 samples.

Results

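The mouse mitochondrial genome was followed as the set of all rows whose gene name begins with mt-. Of the 49315 genes listed in each file, 35 met this rule, 13 mRNAs and 22 tRNAs. The rule also names 2 rRNAs, mt-Rnr1 and mt-Rnr2, which were not analysed here. The values came from RNA sequencing of immortalized mouse embryonic fibroblasts (MEFs) kept in culture, 8 libraries in all. Of these, 4 were from Opa1-/- MEFs, and 4 were from Opa1-/- MEFs with OPA1 put back, here written Opa1-/- + OPA1. Every group thus carries the Opa1 deletion, and wild-type cells were not analysed here. The labels do not say whether a line is 1 clone, how OPA1 was delivered, or whether the libraries came from separate cultures, so the spread behind every p-value is that among these libraries and may be technical.

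Mitochondrial DNA is a small circle, kept in many copies per cell in protein-covered nucleoids at the inner membrane. Both of its strands are transcribed into long RNAs that carry mRNAs, rRNAs and tRNAs end to end, and these are released mostly by cutting at the tRNAs. Its mRNAs encode core subunits of respiratory complexes I, III and IV and of the ATP synthase (complex V), and its tRNAs and rRNAs serve the translation of those mRNAs inside the organelle. OPA1, a GTPase of the inner membrane, fuses inner membranes and shapes cristae.

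Levels are in TPM (transcripts per 1000000, a measure that divides reads by gene length), scaled between libraries by a trimmed mean of log ratios. Differences are log2(scaled TPM + 1) in Opa1-/- minus Opa1-/- + OPA1, which understates the change of low genes, and p-values came from limma-trend and were adjusted by the Benjamini-Hochberg method across all 14272 genes that reached 1 TPM in at least 4 libraries. Genes with an adjusted p under 0.05 were called, and SDs are over n = 4 libraries per group. The steps of the TPM values imply 52934243 to 57815717 assigned reads per library. Opa1 itself, the check on the labels, was at 14.8, 14.7, 13.7 and 12.5 TPM in the Opa1-/- libraries 1 to 4, against 15.6, 14.6, 14.6 and 14.5 TPM in the Opa1-/- + OPA1 libraries (-0.09, 95% confidence interval -0.22 to 0.05, adjusted p = 0.299), so it did not separate the groups and the group names are those of the labels. The fibroblast markers Vim, Fn1, Col1a1 and Col1a2 were present, whereas Pdgfra, Fap and Lum were below 1 TPM. Of the 10 fibroblast markers tested, 6 were lower and 1 higher in Opa1-/-, and all 13 summed to 2749 to 3060.3 TPM in Opa1-/- and 3219 to 3287 TPM in Opa1-/- + OPA1. Epithelial markers summed to 175 to 212 TPM in Opa1-/- and 144 to 207 TPM in Opa1-/- + OPA1, with Cdh1 and Krt8 called higher, Krt18 not called, and Epcam and Cldn4 below 1 TPM. Muscle markers summed to 9.96 to 14.7 TPM in Opa1-/- and 20.8 to 22.7 TPM in Opa1-/- + OPA1, nearly all of it Tnnt2, which was called lower, with Myog at 0 in every library. Leukocyte, endothelial and neural markers were below 1 TPM except Cd68 and Snap25, which were not called. The part of any of these markers in the results below was not tested.

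RNA from the mitochondrial genome was lower in Opa1-/- cells, in mRNAs of all 4 complexes and in most tRNAs. The 2 complex V mRNAs had means of at most 10.4 TPM in Opa1-/- and 22.1 TPM in Opa1-/- + OPA1. Their levels are uncertain for reasons given below. Of the 31 members tested, 25 were called lower and 0 higher, while 33.0% of all genes tested were called, 16.9% lower and 16.2% higher. The 12 mRNAs called lay between -0.57 and -1.11, and the 13 tRNAs called between -0.47 and -1.09. The median difference was -0.97 over the 13 mRNAs and -0.64 over the 18 tested tRNAs, against -0.00 over all genes tested. The remaining 4 tRNAs were too low to test, so no count here covers all 35 members. In bulk RNA, fewer cells of a kind and less RNA per cell cannot be told apart, and neither can fewer copies of the genome and less RNA per copy.

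**Figure D1:**
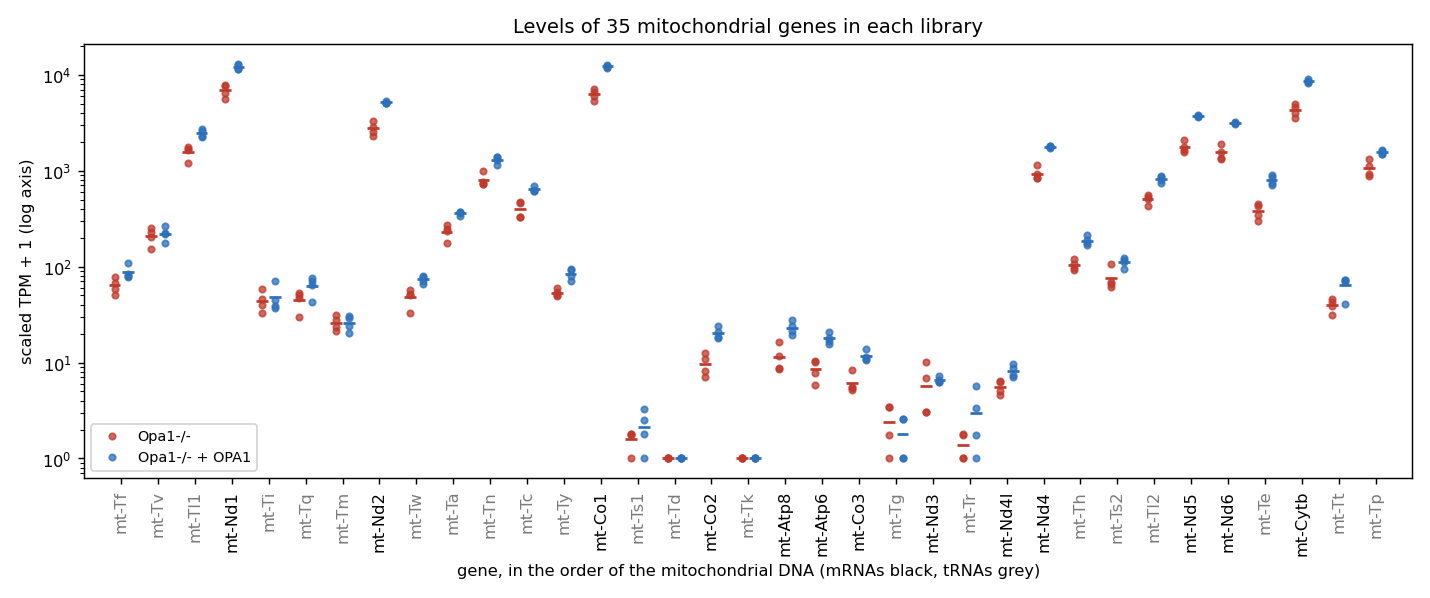
Scaled TPM plus 1 on a log axis for each of the 35 mitochondrial genes in every library, in genome order, with Opa1-/- libraries left (red) and Opa1-/- + OPA1 libraries right (blue) and bars at the mean of 4 libraries. mRNAs such as mt-Nd1 and mt-Co1 sit at the top, while the genes from mt-Ts1 to mt-Nd4l, apart from those at 0, sit below 30.

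**Figure D2:**
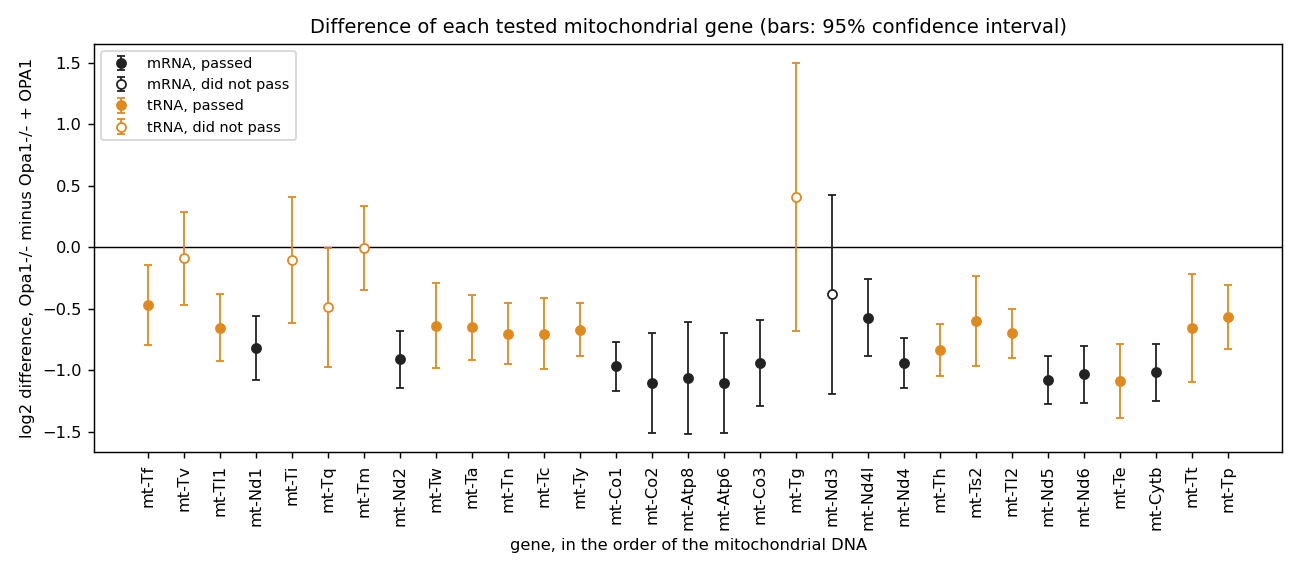
Log2 difference between Opa1-/- and Opa1-/- + OPA1 for the 31 tested mitochondrial genes in genome order, with 95% confidence intervals; filled points were called at adjusted p below 0.05. All 25 filled points lie below 0, and the open points are mt-Tv, mt-Ti, mt-Tq, mt-Tm, mt-Tg and mt-Nd3.

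Every Opa1-/- library was below every Opa1-/- + OPA1 library for 12 mRNAs and 11 tRNAs, 23 of the 31 tested members, and the same held for 19.0% of all genes tested, with the reverse for 17.2%. A difference of -0.5 or lower was seen for 24 of the 31 tested members, against 3.80% of all genes tested, and one of -0.9 or lower for 10 mRNAs and mt-Te, against 0.715% of all genes tested. Ranked from the lowest difference, mt-Co2, the lowest of the members, stood at 41 of 14272, near the low end, with some genes below it. Within the Opa1-/- group, library 3 was the lowest for 24 of the 31 tested members, and library 4 the highest for 17 and library 2 for 11. Within the Opa1-/- + OPA1 group, library 3 was also the lowest most often, for 11, and library 1 the highest for 17. Without both libraries numbered 3, 23 members were called lower.

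mRNAs of complex I, the NADH dehydrogenase that takes electrons from NADH, were lower for 6 of 7 members. mt-Nd1 (ENSMUSG00000064341; GRCm38 chrM:2751-3707, plus strand) encodes the membrane subunit next to the quinone site. Its level was 6478, 7689, 5512 and 7822 TPM in the Opa1-/- libraries 1 to 4, against 13004, 12555, 11333 and 11322 TPM in the Opa1-/- + OPA1 libraries 1 to 4. The groups did not overlap and were further apart than the libraries within either, at 6876 ± 1092 TPM in Opa1-/- and 12054 ± 858 TPM in Opa1-/- + OPA1, a difference of -0.82 (SE 0.11, adjusted p = 0.000833). mt-Nd2 (chrM:3914-4951, plus), another membrane subunit, had 2552, 2871, 2287 and 3324 TPM in the Opa1-/- libraries, against 5370.4, 5093, 5095 and 5014 TPM in the Opa1-/- + OPA1 libraries. Its lowest Opa1-/- + OPA1 library stood above its highest Opa1-/- library, and the difference was -0.91 (SE 0.10, adjusted p = 0.000281).

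mt-Nd5 (chrM:11742-13565, plus), which encodes an antiporter-like subunit of the proton-pumping arm, had the smallest adjusted p of all members. It was at 1630.4, 1760.5, 1562 and 2103 TPM in the Opa1-/- libraries, against 3791, 3592, 3719 and 3707 TPM in the Opa1-/- + OPA1 libraries, so that Opa1-/- held 47.6% of the Opa1-/- + OPA1 mean, a difference of -1.08 (SE 0.09, adjusted p = 5.17e-05). mt-Nd4 (chrM:10167-11544, plus), a related antiporter-like subunit, was at 845, 914, 829 and 1133 TPM in the Opa1-/- libraries, against 1824, 1736, 1760.0 and 1791 TPM in the Opa1-/- + OPA1 libraries (-0.94, adjusted p = 0.000122). In both genes the spread between libraries was wider in Opa1-/- than in Opa1-/- + OPA1, as library 4 was the highest and library 3 the lowest of its group. mt-Nd6 (chrM:13552-14070, minus) is the only mRNA on the minus strand of the annotation. It had 1368, 1577, 1333 and 1910.0 TPM in the Opa1-/- libraries, against 3153, 3065, 3097 and 3227 TPM in the Opa1-/- + OPA1 libraries, without overlap (-1.03, adjusted p = 0.000154). The sources used here do not say whether strand was kept, in the libraries or in counting, so RNA of the other strand at minus-strand genes cannot be separated from theirs.

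The last complex I mRNAs, mt-Nd3 and mt-Nd4l, which encode small membrane subunits, were listed at under 10 TPM in every library. mt-Nd4l (chrM:9877-10173, plus) was at 3.56, 5.20, 4.02 and 5.36 TPM in the Opa1-/- libraries, against 8.63, 7.80, 6.08 and 6.34 TPM in the Opa1-/- + OPA1 libraries, again without overlap (-0.57, adjusted p = 0.0119). mt-Nd3 (chrM:9459-9806, plus) was the mRNA that did not pass. Its Opa1-/- libraries split, at 5.91, 9.03, 2.03 and 2.06 TPM in libraries 1 to 4, around the narrow Opa1-/- + OPA1 values of 6.16, 5.27, 5.65 and 5.26 TPM. The interval of its difference, -1.19 to 0.42, takes in both no change and the fall seen in the other mRNAs (adjusted p = 0.451). These values rest on 37, 57, 13 and 14 reads in Opa1-/- and 41, 34, 37 and 34 reads in Opa1-/- + OPA1.

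mt-Cytb (chrM:14145-15288, plus), the cytochrome b of complex III and the only mRNA of that complex in the mitochondrial genome, was also lower. It was at 3962, 4565, 3507 and 4931 TPM in the Opa1-/- libraries, against 8982, 8666, 8154 and 8297 TPM in the Opa1-/- + OPA1 libraries. The groups lay far apart, with Opa1-/- at 49.8% of the Opa1-/- + OPA1 mean and a difference of -1.02 (SE 0.10, adjusted p = 0.000149).

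All 3 mRNAs of complex IV, the cytochrome c oxidase that reduces oxygen, were called lower. mt-Co1 (chrM:5328-6872, plus), its catalytic subunit, had 6002, 6662, 5293 and 7055 TPM in the Opa1-/- libraries, against 12564, 12128, 11754 and 12215 TPM in the Opa1-/- + OPA1 libraries, at 6253 ± 773 TPM in Opa1-/- and 12165 ± 333 TPM in Opa1-/- + OPA1 (-0.97, SE 0.09, adjusted p = 9.54e-05). mt-Co2 (chrM:7013-7696, plus), which receives electrons from cytochrome c, had 7.07, 9.99, 6.04 and 11.6 TPM in the Opa1-/- libraries, against 23.2, 17.3, 17.2 and 19.9 TPM in the Opa1-/- + OPA1 libraries (-1.11, SE 0.18, adjusted p = 0.00185). mt-Co3 (chrM:8607-9390, plus) was at 4.47, 4.57, 4.23 and 7.40 TPM in the Opa1-/- libraries, with library 4 well above the other 3, against 12.9, 9.76, 9.62 and 10.5 TPM in the Opa1-/- + OPA1 libraries (-0.94, SE 0.16, adjusted p = 0.00193). None of the 3 had overlapping groups, although mt-Co2 and mt-Co3 were listed at a small fraction of the level of mt-Co1.

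Both mRNAs of complex V, the ATP synthase, were called lower from similarly low levels. mt-Atp6 (chrM:7927-8607, plus), the subunit that forms the proton channel, had 6.78, 9.31, 4.79 and 9.19 TPM in the Opa1-/- libraries, against 19.96, 17.0, 15.9 and 14.8 TPM in the Opa1-/- + OPA1 libraries (-1.10, SE 0.18, adjusted p = 0.00182). mt-Atp8 (chrM:7766-7969, plus), a short membrane subunit, had 7.63, 10.8, 7.72 and 15.3 TPM in the Opa1-/- libraries, against 26.7, 23.0, 18.5 and 20.3 TPM in the Opa1-/- + OPA1 libraries (-1.06, SE 0.20, adjusted p = 0.00402). The 2 genes share 43 bases, and the sources used here do not say how reads in that stretch were assigned, so their values are uncertain.

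Summed over the 13 mRNAs, the share of the deposited TPM was 2.43 ± 0.253% in Opa1-/- and 4.66 ± 0.199% in Opa1-/- + OPA1. By library it was 2.29, 2.53, 2.168 and 2.74% in Opa1-/- 1 to 4, against 4.80, 4.53, 4.86 and 4.46% in Opa1-/- + OPA1 1 to 4. As a share of the recovered reads, which does not divide by gene length, the mRNAs held 0.998 ± 0.146% in Opa1-/- and 1.86 ± 0.0652% in Opa1-/- + OPA1. The groups did not overlap on either measure. A group of 4 small and ribosomal RNA genes of the nucleus took 10.96% to 15.5% of the TPM in Opa1-/- and 5.29% to 14.2% in Opa1-/- + OPA1. Library 3 held the lowest of these shares in both groups. With those genes left out, the mRNA share was 2.84 ± 0.340% in Opa1-/- and 5.28 ± 0.195% in Opa1-/- + OPA1.

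**Figure D3:**
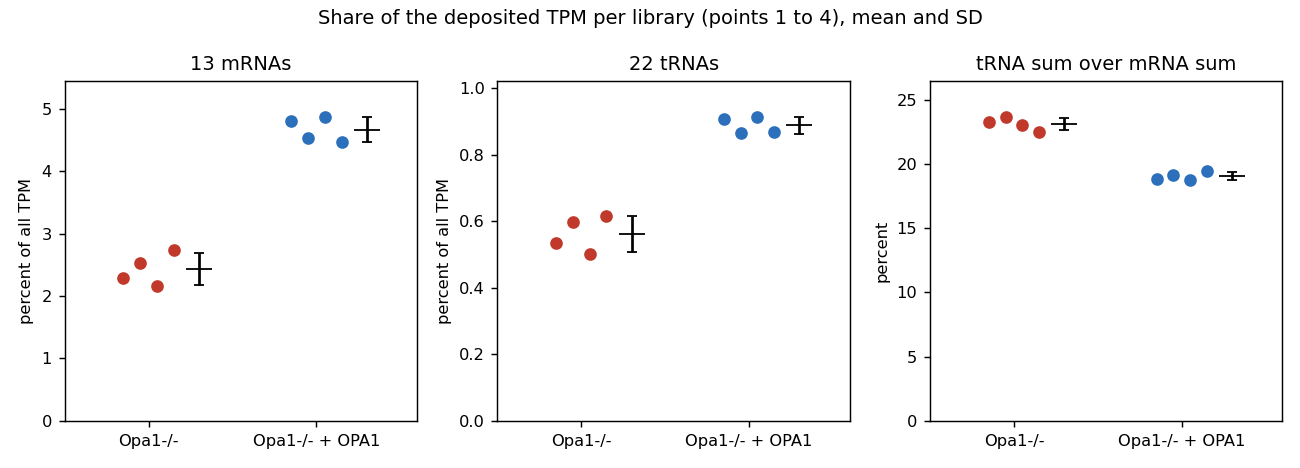
Share of the deposited TPM held by the 13 mRNAs (left) and the 22 tRNAs (middle), and the tRNA sum as a percent of the mRNA sum (right), per library with mean and SD, Opa1-/- left and Opa1-/- + OPA1 right. The mRNA share lies between 2.168% and 2.74% in Opa1-/- and between 4.46% and 4.86% in Opa1-/- + OPA1, while the ratio of the sums is higher in Opa1-/-.

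The 7 abundant mRNAs kept nearly the same order of levels in both groups. In Opa1-/- it ran mt-Nd1, mt-Co1, mt-Cytb, mt-Nd2, mt-Nd5, mt-Nd6 and mt-Nd4, and in Opa1-/- + OPA1 mt-Co1 and mt-Nd1 stood in the other order. The ranges of mt-Nd1 and mt-Co1 over the libraries overlapped in both groups. Compared within the same library, mt-Co1 was below mt-Nd1 in each Opa1-/- library, at ratios of 0.927, 0.866, 0.960 and 0.902. In the Opa1-/- + OPA1 libraries it went both ways, at 0.966, 0.966, 1.04 and 1.08. Relative to mt-Nd1 in the same library, mt-Cytb was at 0.612, 0.594, 0.636 and 0.630 in Opa1-/-, against 0.691, 0.690, 0.720 and 0.733 in Opa1-/- + OPA1, with every Opa1-/- value lower. The same ratio averaged 0.914 ± 0.0396 in Opa1-/- and 1.01 ± 0.0558 in Opa1-/- + OPA1 for mt-Co1, and 0.258 ± 0.0234 in Opa1-/- and 0.308 ± 0.0226 in Opa1-/- + OPA1 for mt-Nd5, both without overlap. For mt-Nd2, mt-Nd4 and mt-Nd6 the ratios of the groups overlapped. No test was made of these ratios, which were looked at with the levels known. Annotated nuclear transcripts hold much of the sequence of mt-Co1 and mt-Nd4, as given below. Their place in this order and their ratios to mt-Nd1 are therefore uncertain.

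**Figure D4:**
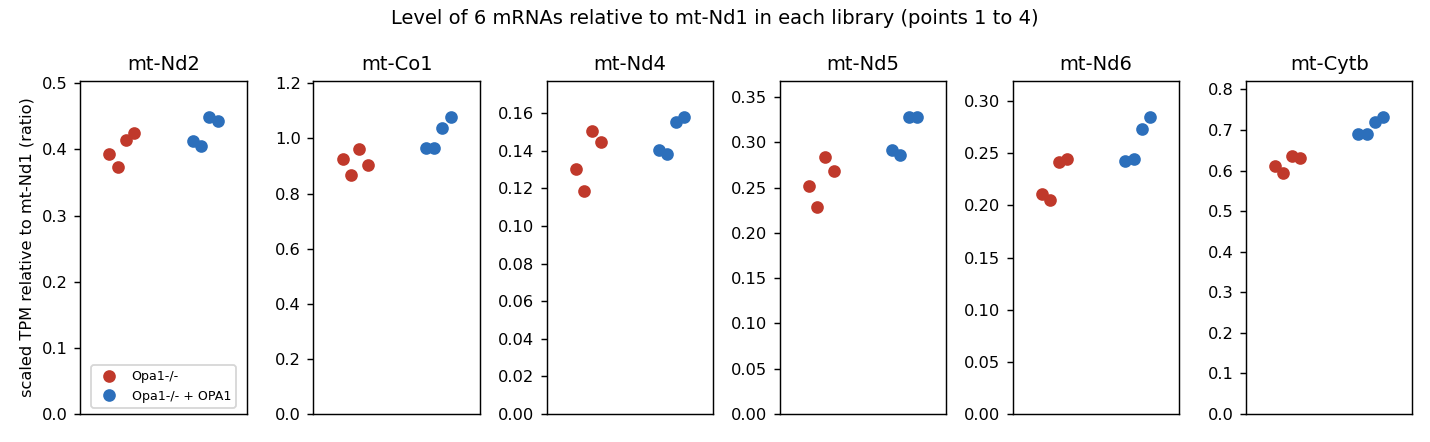
Scaled TPM of 6 mRNAs divided by that of mt-Nd1 in the same library, for Opa1-/- (red, left) and Opa1-/- + OPA1 (blue, right) libraries 1 to 4. The groups are apart for mt-Co1, mt-Nd5 and mt-Cytb, with means of 0.618 in Opa1-/- and 0.708 in Opa1-/- + OPA1 for mt-Cytb, and overlap for mt-Nd2, mt-Nd4 and mt-Nd6.

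The low mRNAs lie in one stretch of the genome, and annotated nuclear pseudogenes hold near-identical copies of much of it. In GENCODE M21 (GRCm38), 7 pseudogenes on the minus strand of chromosome 1 lie between 24611535 and 24616197. Piece by piece and in the same order, they match mitochondrial DNA within positions 6381 to 11042, a span of 4662 bases here called the copied stretch. Their positions and those of the matching mitochondrial genes add up to the same number to within 1 base. Wholly inside this stretch lie 11 members, the mRNAs mt-Co2, mt-Atp8, mt-Atp6, mt-Co3, mt-Nd3 and mt-Nd4l and the tRNAs mt-Ts1, mt-Td, mt-Tk, mt-Tg and mt-Tr. Their highest mean was 10.4 TPM in Opa1-/- and 22.1 TPM in Opa1-/- + OPA1. The tRNAs among them and mt-Atp8 lie wholly or mostly between the annotated pseudogenes, where no nuclear sequence was compared. mt-Co1 and mt-Nd4 lie partly inside, and the 22 members outside had means of at least 24.9 TPM in Opa1-/- and 25.1 TPM in Opa1-/- + OPA1. The treatment of reads that match more than 1 place is unknown from the sources used here. The levels of members wholly or partly inside the stretch are therefore uncertain and are not comparable with those of members outside.

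Words of 50 bases from each mRNA were searched for in all annotated nuclear transcripts. All words of mt-Co2 recurred there, 99.9% of those of mt-Co3, 99.5% of mt-Atp6, 98.8% of mt-Nd4l and 98.0% of mt-Nd3. mt-Nd4 and mt-Co1 shared 62.2% and 51.1% of their words, mt-Nd2 and mt-Nd5 8.19% and 7.61%, and mt-Nd1, mt-Nd6 and mt-Cytb none. mt-Atp8 also had none, as the annotated pseudogenes cover only its last 43 bases, which is shorter than a word. The start of mt-Nd3 and of its copy, pseudogene Gm28438, shows how close they are; over 345 aligned bases they differ at 1 position, T3C counted from the first base of mt-Nd3, given in capitals below (GENCODE M21 transcripts, GRCm38).
mt-Nd3, chrM:9459-9518, plus strand: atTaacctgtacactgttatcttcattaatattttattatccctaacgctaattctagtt
Gm28438, chr1:24613060-24613119, minus strand: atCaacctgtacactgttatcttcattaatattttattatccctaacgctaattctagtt

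**Figure D5:**
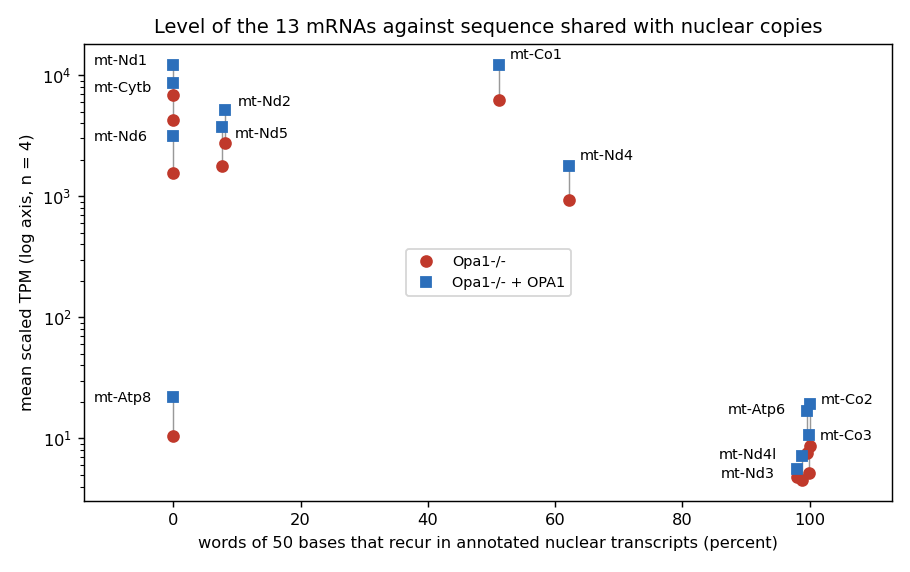
Mean scaled TPM of the 13 mRNAs on a log axis against the percent of their 50-base words found in annotated nuclear transcripts, with Opa1-/- as red circles, Opa1-/- + OPA1 as blue squares and a line joining the means of each gene. The 5 mRNAs at 98.0% or more, and mt-Atp8 at 0, have means below 25 TPM in both groups, and the other 7 have means of 930.4 TPM or more.

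Reads assigned to the 7 pseudogenes moved the same way as the mitochondrial genes they copy. All 7 were called lower, as were 16.9% of all genes tested, though the groups overlapped for Gm10222 (limma-trend adjusted p = 0.0369). Gm28438 was at 222, 248, 186 and 268 TPM in the Opa1-/- libraries, against 398, 373, 361 and 365 TPM in the Opa1-/- + OPA1 libraries, without overlap, which is far above the level listed for mt-Nd3 itself. Adding the reads of mt-Nd3 and Gm28438 gave 27.7 ± 4.42 reads per 1000000 in Opa1-/- and 43.2 ± 2.00 in Opa1-/- + OPA1, again without overlap. The same sum for a gene and its copy was without overlap for mt-Co2, mt-Atp6 and mt-Co3, at 49.98%, 46.9% and 52.7% of the Opa1-/- + OPA1 mean. For mt-Nd4l and Gm10222 it was 3.66 ± 0.713 reads per 1000000 in Opa1-/- and 4.88 ± 0.589 in Opa1-/- + OPA1, with overlap. A read from identical sequence cannot be assigned to the mitochondrial or the nuclear copy from these values.

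Most mitochondrial tRNAs were lower as well, with a smaller median difference than the mRNAs. Of the 18 tested, 13 were called lower and 0 higher, and 10 of the 13 stayed called whichever library was left out. Together the 22 tRNAs held 0.562 ± 0.0543% of the TPM in Opa1-/- and 0.888 ± 0.0245% in Opa1-/- + OPA1, and 0.0135 ± 0.00191% of the recovered reads in Opa1-/- and 0.0206 ± 0.000772% in Opa1-/- + OPA1. The 2 measures differ because TPM divides by gene length, here 59 to 75 bases. A read at a tRNA gene can come from the tRNA itself or from a longer RNA that spans it, and these values do not separate them. The levels given for tRNAs are therefore those of all reads at the gene, not of the tRNA alone. The sequences of the tRNAs that the results turn on are given first, those called lower with the largest fall (mt-Te, mt-Th) or the most reads (mt-Tl1, mt-Tp, mt-Tn). After them stand those outside the copied stretch that did not pass (mt-Tv, mt-Ti, mt-Tq, mt-Tm). Each is the gene sequence in the RNA sense from GENCODE M21 (GRCm38), with the anticodon in capitals.
mt-Te: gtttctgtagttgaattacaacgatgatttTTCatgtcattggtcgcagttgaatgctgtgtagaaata
mt-Th: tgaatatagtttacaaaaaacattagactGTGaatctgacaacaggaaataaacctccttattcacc
mt-Tl1: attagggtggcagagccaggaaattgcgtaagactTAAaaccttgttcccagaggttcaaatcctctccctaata
mt-Tp: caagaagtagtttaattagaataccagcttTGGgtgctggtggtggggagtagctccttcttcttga
mt-Tn: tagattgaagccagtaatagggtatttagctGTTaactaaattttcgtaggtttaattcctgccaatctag
mt-Tv: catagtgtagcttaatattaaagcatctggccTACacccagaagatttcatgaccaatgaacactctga
mt-Ti: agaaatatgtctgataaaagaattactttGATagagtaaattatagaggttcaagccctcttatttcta
mt-Tq: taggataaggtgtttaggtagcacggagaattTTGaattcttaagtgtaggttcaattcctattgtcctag
mt-Tm: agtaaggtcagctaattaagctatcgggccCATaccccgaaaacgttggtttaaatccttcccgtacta

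mt-Te (chrM:14071-14139, minus), the tRNA for glutamate, had the largest difference among the tRNAs, within the range of the mRNAs. It had 294, 453, 346 and 425 TPM in the Opa1-/- libraries, against 715, 889, 747 and 857 TPM in the Opa1-/- + OPA1 libraries, so Opa1-/- held 47.4% of the Opa1-/- + OPA1 mean (-1.09, SE 0.13, adjusted p = 0.000427). No Opa1-/- library came near the lowest Opa1-/- + OPA1 library. mt-Th (chrM:11546-11612, plus), the tRNA for histidine, came next, at 92.2, 118, 94.8 and 106 TPM in the Opa1-/- libraries, against 209.9, 189, 165 and 174 TPM in the Opa1-/- + OPA1 libraries (-0.84, SE 0.09, adjusted p = 0.000285).

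The tRNAs with the most reads were also lower without overlap. mt-Tl1 (chrM:2676-2750, plus), which carries leucine and lies directly before mt-Nd1, had 1641, 1774, 1202 and 1666 TPM in the Opa1-/- libraries, against 2722, 2574, 2242 and 2292 TPM in the Opa1-/- + OPA1 libraries (-0.66, SE 0.12, adjusted p = 0.00341). Relative to mt-Nd1 in the same library it was higher in every Opa1-/- library, at 0.253, 0.231, 0.218 and 0.213 in Opa1-/-, against 0.209, 0.205, 0.198 and 0.202 in Opa1-/- + OPA1. For the other 7 tRNAs set against mt-Nd1 (mt-Tn, mt-Tc, mt-Tl2, mt-Te, mt-Tp, mt-Th and mt-Ta) the ratios of the groups overlapped, and for mt-Te the mean was 0.0554 in Opa1-/- and 0.0668 in Opa1-/- + OPA1. mt-Tp (chrM:15356-15422, minus), the proline tRNA, had 887, 1108, 920.1 and 1317 TPM in the Opa1-/- libraries, against 1630.2, 1485, 1492 and 1583 TPM in the Opa1-/- + OPA1 libraries (-0.57, SE 0.11, adjusted p = 0.00552). Its neighbour in level, the asparagine tRNA mt-Tn (chrM:5089-5159, minus), had 729, 756, 721 and 994 TPM in the Opa1-/- libraries, against 1370.5, 1131, 1279 and 1399 TPM in the Opa1-/- + OPA1 libraries (-0.70, SE 0.11, adjusted p = 0.00149). In both, library 4 was the highest of the Opa1-/- libraries.

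The other minus-strand tRNAs beside mt-Tn form a cluster between mt-Nd2 and mt-Co1 and were lower without overlap. mt-Ta, the alanine tRNA, had 232, 272, 175 and 245 TPM in the Opa1-/- libraries, against 336, 364, 366 and 369 TPM in the Opa1-/- + OPA1 libraries (-0.65, adjusted p = 0.00299). mt-Tc, the cysteine tRNA, was at 326, 469, 326 and 460.3 TPM in the Opa1-/- libraries, against 619.5, 632, 605 and 684 TPM in the Opa1-/- + OPA1 libraries (-0.70, adjusted p = 0.00314). mt-Ty, the tyrosine tRNA, was at 58.1, 49.4, 47.8 and 52.8 TPM in the Opa1-/- libraries, against 94.4, 90.1, 70.5 and 79.5 TPM in the Opa1-/- + OPA1 libraries (-0.67, adjusted p = 0.000897). Of the 7 minus-strand tRNAs tested, 6 were called lower, and of the 11 on the plus strand 7 were. Strands were not tested against each other.

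On the plus strand, mt-Tl2, the other leucine tRNA, had 505, 531, 425 and 557 TPM in the Opa1-/- libraries, against 859, 873, 799 and 741 TPM in the Opa1-/- + OPA1 libraries (-0.70, adjusted p = 0.000463), without overlap. mt-Tw, the tryptophan tRNA, had 55.6, 51.0, 49.5 and 32.2 TPM in the Opa1-/- libraries, with library 4 the lowest, against 78.8, 76.4, 70.5 and 64.3 TPM in the Opa1-/- + OPA1 libraries (-0.64, adjusted p = 0.0118). The remaining calls, for the tRNAs of phenylalanine (mt-Tf), threonine (mt-Tt) and a serine (mt-Ts2), did not hold without some single libraries. mt-Tf had 67.1, 57.6, 49.5 and 77.0 TPM in the Opa1-/- libraries, against 83.0, 77.7, 78.9 and 108 TPM in the Opa1-/- + OPA1 libraries (-0.47, adjusted p = 0.0347), and lost its call without Opa1-/- library 2 or 3 or Opa1-/- + OPA1 library 1, 3 or 4 (adjusted p = 0.0501 to 0.0851). mt-Tt had 38.2, 45.3, 29.995 and 41.4 TPM in the Opa1-/- libraries, against 39.8, 71.6, 68.2 and 70.7 TPM in the Opa1-/- + OPA1 libraries (-0.66, adjusted p = 0.0293), with overlap only through Opa1-/- + OPA1 library 1. Its call was lost without Opa1-/- library 1 or 3 or Opa1-/- + OPA1 library 2, 3 or 4 (adjusted p = 0.0587 to 0.0776). mt-Ts2 had 64.1, 105, 60.8 and 67.8 TPM in the Opa1-/- libraries, where library 2 overlapped the other group, against 112, 116, 93.6 and 122 TPM in the Opa1-/- + OPA1 libraries (-0.60, adjusted p = 0.01999), and did not pass without Opa1-/- library 1 or Opa1-/- + OPA1 library 4 (adjusted p = 0.0521 and 0.0556).

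Outside the copied stretch, 4 tRNAs did not pass, and all 4 had overlapping groups. mt-Tv (chrM:1025-1093, plus), the valine tRNA that sits between the 2 rRNA genes, had 227, 252, 151 and 202 TPM in the Opa1-/- libraries, against 224, 265, 219 and 173 TPM in the Opa1-/- + OPA1 libraries. With a difference of -0.09 (95% confidence interval -0.47 to 0.29, adjusted p = 0.725), it had an interval that leaves out the fall of mt-Te or mt-Th. mt-Ti (chrM:3706-3774, plus), for isoleucine, had 31.4, 38.4, 44.9 and 57.3 TPM in the Opa1-/- libraries, against 35.6, 38.3, 43.9 and 69.4 TPM in the Opa1-/- + OPA1 libraries (-0.10, 95% confidence interval -0.62 to 0.41, adjusted p = 0.766). The methionine tRNA mt-Tm (chrM:3845-3913, plus) had 26.6, 30.4, 20.5 and 22.3 TPM in the Opa1-/- libraries, against 28.0, 19.5, 23.1 and 29.6 TPM in the Opa1-/- + OPA1 libraries (-0.01, 95% confidence interval -0.35 to 0.33, adjusted p = 0.981), on 25 to 38 reads per library. mt-Tq (chrM:3772-3842, minus), for glutamine, had 49.4, 46.6, 29.1 and 52.0 TPM in the Opa1-/- libraries, against 42.0, 69.1, 74.8 and 63.7 TPM in the Opa1-/- + OPA1 libraries (-0.49, adjusted p = 0.114). Without Opa1-/- + OPA1 library 1, the lowest of its group, mt-Tq was called lower (adjusted p = 0.0307).

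The 5 tRNAs inside the copied stretch had almost no reads. mt-Tg, for glycine, was tested but had 7 reads over the 4 Opa1-/- libraries and 4 over the 4 Opa1-/- + OPA1 libraries (adjusted p = 0.560). mt-Ts1, for serine, had 3 reads over the Opa1-/- libraries and 6 over the Opa1-/- + OPA1 libraries, and mt-Tr, for arginine, had 2 over the Opa1-/- libraries and 10 over the Opa1-/- + OPA1 libraries. mt-Td and mt-Tk, for aspartate and lysine, had 0 reads in all 8 libraries, which at 3 reads per library allows up to 2.20 to 2.38 TPM for mt-Td and 2.37 to 2.57 TPM for mt-Tk, counting error only. All of these tRNAs but mt-Tg were too low to test, and no difference between the groups could be judged from so few reads.

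The tRNA sum was a larger percent of the mRNA sum in Opa1-/- than in Opa1-/- + OPA1. It was 23.3, 23.6, 23.1 and 22.5% in Opa1-/- 1 to 4, against 18.9, 19.1, 18.8 and 19.5% in Opa1-/- + OPA1 1 to 4, and no Opa1-/- library came within the range of the Opa1-/- + OPA1 libraries. The means were 23.1 ± 0.465% in Opa1-/- and 19.0 ± 0.315% in Opa1-/- + OPA1. A sum over the members was given no test. Both sums take in members of the copied stretch, whose listed levels are low and uncertain, so the percent is uncertain too.

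Nuclear genes that transcribe, process, modify or maintain mitochondrial DNA and RNA were called in both directions, at shares not far from those of all genes. Of 82 genes in 4 lists, all tested, 14 were called higher and 10 lower and 58 did not pass, that is 17.1% higher and 12.2% lower, against 16.2% and 16.9% of all genes tested. The called differences lay between -0.36 and 0.40. In the list for mitochondrial transcription, 1 of 11 (9.09%) was called higher and 0 lower, with a median of 0.15. That was Tfam, which packages mitochondrial DNA and helps start its transcription, at 50.9 ± 2.83 TPM in Opa1-/- and 45.8 ± 1.47 TPM in Opa1-/- + OPA1 (0.15, SE 0.05, adjusted p = 0.0405). The call was lost without any single library but Opa1-/- 3 or 4 (adjusted p = 0.0569 to 0.118). Among 21 genes of mitochondrial DNA replication and maintenance, 6 were called higher and 3 lower (median 0.01), 28.6% and 14.3%. Mpv17, an inner membrane protein needed to keep mitochondrial DNA, was at 49.9 ± 1.84 TPM in Opa1-/- and 37.6 ± 1.62 TPM in Opa1-/- + OPA1 (0.40, SE 0.04, adjusted p = 0.000270). Slc25a36, a pyrimidine nucleotide carrier, differed by 0.25 (SE 0.06, adjusted p = 0.00997) and Ssbp1, the single-stranded DNA binding protein of the replication fork, by 0.26 (SE 0.07, adjusted p = 0.0260). Atad3a, an inner membrane ATPase, differed by -0.23 (SE 0.04, adjusted p = 0.00127), and Lig3, a DNA ligase, and Polg, the replicative polymerase, differed by -0.24 (SE 0.08, adjusted p = 0.0416) and -0.16 (SE 0.05, adjusted p = 0.0406).

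Of 25 genes that process or degrade mitochondrial RNA, 3 were called higher and 3 lower (median 0.01), 12% in each direction against 16.2% higher and 16.9% lower over all genes tested. Elac2, the nuclease that cuts tRNA 3′ ends, was at 34.1 ± 2.52 TPM in Opa1-/- and 44.0 ± 1.58 TPM in Opa1-/- + OPA1 (-0.36, SE 0.06, adjusted p = 0.00141), which kept its call whichever library was left out. Ptcd3, of the mitochondrial ribosome, and Tbrg4, which binds mitochondrial mRNAs, differed by -0.15 (SE 0.03, adjusted p = 0.00836) and -0.13 (SE 0.04, adjusted p = 0.0412). Rexo2, which degrades short RNA fragments, differed by 0.25 (SE 0.06, adjusted p = 0.00828), Fastk, an RNA-binding protein, by 0.23 (SE 0.06, adjusted p = 0.0208) and Lactb2, an endoribonuclease, by 0.18 (SE 0.04, adjusted p = 0.0109). Of 25 genes that modify mitochondrial tRNAs or rRNAs, 4 were called higher and 4 lower (median 0.04), 16% in each direction, near the shares of all genes. Yrdc, which makes the threonylcarbamoyl donor for tRNA modification, differed by -0.35 (SE 0.06, adjusted p = 0.00201) and Qtrt2, which helps insert queuine, by -0.31 (SE 0.08, adjusted p = 0.0206). Gtpbp3, which modifies the wobble base, differed by -0.26 (SE 0.04, adjusted p = 0.00165). The rRNA methyltransferases Mrm1 and Mrm2 differed by 0.21 (SE 0.06, adjusted p = 0.0204) and 0.20 (SE 0.04, adjusted p = 0.00562), and Osgepl1, which acts after Yrdc, by 0.20 (SE 0.06, adjusted p = 0.0264).

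Of these 19 nuclear genes, 9 lost the call when some 1 library was left out. Beside Tfam, Polg was lost without any library but Opa1-/- 3 (adjusted p = 0.0507 to 0.113), Lig3 without any but Opa1-/- 3 or Opa1-/- + OPA1 2 (0.0564 to 0.104) and Tbrg4 without any but Opa1-/- 1 or 4 (0.0594 to 0.0986). Ssbp1 was lost without Opa1-/- 2 or Opa1-/- + OPA1 1, 3 or 4 (0.0579 to 0.0750), Osgepl1 without Opa1-/- 2 or Opa1-/- + OPA1 2, 3 or 4 (0.0598 to 0.0760) and Mrm1 without Opa1-/- 1 or 2 or Opa1-/- + OPA1 1 or 4 (0.0504 to 0.0586). Qtrt2 was lost without Opa1-/- 2 or Opa1-/- + OPA1 3 or 4 (0.0556 to 0.0583), and Fastk without Opa1-/- + OPA1 1 or 2 (0.0561 and 0.0616), all as limma adjusted p. With each chromosome's median difference removed, Atad3a, Gtpbp3, Rexo2 and Slc25a36 also did not pass (adjusted p = 0.109, 0.191, 0.0668 and 0.0792), and on TPM as deposited Ptcd3 and Mrm2 did not (0.123 and 0.0820). With the replicate number as a block, Tbrg4 and Osgepl1 did not pass (0.0515 and 0.0630). Elac2, Yrdc, Mpv17 and Lactb2 passed in every alternative tried but a test against a 1.2-fold change, where none of the 19 passed.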

How the data were processed

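RNA of 4 Opa1-/- and 4 Opa1-/- + OPA1 libraries was prepared with RNeasy Plus columns and sequenced from NEBNext Ultra II RNA libraries, per the labels' protocols. The submitters' processing notes name bcl2fastq 2.17, STAR 2.5.2b, featureCounts and Subread 1.5.2, and the builds mm10 and GRCh38 with no role. Per the file headers the authors deposited TPM values, 1 per gene and library. Selection of RNA, strandedness, read length and the treatment of reads with several matches are not given in the sources used here.

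Positions, exon lengths and sequences are those of GENCODE M21, which is on GRCm38 (mm10). TPM times exon length steps in whole reads, and 92.6% to 93.0% of low values were whole within 0.05 of a read, which gave the recovered reads. These rest on that annotation, and intervals and floors from reads cover counting error only. Scaling used an unweighted trimmed mean of log ratios that left out 30% of the ratios and 5% of the levels at each end. Genes that reached 1 TPM in 4 libraries or more entered limma-trend (limma 3.58.1 in R 4.3.3) on log2(scaled TPM + 1), two-sided, with Benjamini-Hochberg adjustment. The procedure was also run on simulated data, and the outcome of that run is not given here. Tables and plots were made with matplotlib 3.10.9, pandas 2.3.3, numpy 2.4.6 and Python 3.11.15.

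The members, the lists and the position split were chosen with earlier results of these data known. All members are named, with Opa1 and, of each nuclear list, up to 3 genes called in each direction with the largest change; pseudogenes are named where they bear on a member. Alternatives were TPM as deposited, other scalings, pseudocounts and filters, limma-voom on recovered reads, no trend, the replicate number as a block, a test against a 1.2-fold change, each library left out and both libraries numbered 3 left out; removal of chromosome medians was added after seeing the data. Libraries of the same group differed by more than read-sampling noise in all 12 pairs (chi-square per degree of freedom at least 4.79), which does not show that they came from separate cultures. Each library was counted as 1 sample.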

Additional observations from a re-analysis of the deposited data

Results flagged for a closer look

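In groups of 4 libraries, 10 of the 112 groups examined held 1 library set apart from the other 3 by Dixon's criterion, and chance gives about 1 in 20. In Opa1-/- the library apart was the highest for mt-Tn (library 4, 994.5 TPM), mt-Co3 (library 4, 7.396 TPM) and mt-Ts2 (library 2, 104.7 TPM), and the lowest for mt-Ts1 (library 1, 0.0 TPM, no reads) and Mrm1 (9.68 TPM). In Opa1-/- + OPA1 it was the lowest for mt-Ta (library 1, 335.7 TPM), mt-Tt (library 1, 39.8 TPM) and Ptcd3 (81.71 TPM), and the highest for Yrdc (65.27 TPM) and Opa1 (library 1, 15.6 TPM). For mt-Ts2 and mt-Tt the library apart is the one that makes the groups overlap.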

How the results depend on the processing

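The 12 mRNAs were called lower under every alternative but the test against a 1.2-fold change, where mt-Nd4l was lost. Of the 10 called tRNAs other than mt-Tf, mt-Tt and mt-Ts2, that test alone ended the calls of mt-Tl1, mt-Tw, mt-Ta, mt-Tc and mt-Tp, and the other 5 kept theirs in every alternative. The test against a 1.2-fold change called 409 genes higher and 320 lower of all tested, and 0 in either direction in all 4 nuclear lists. The call of mt-Tf was also lost with upper-quartile scaling, with limma-voom (adjusted p = 0.0503 and 0.0531) and with no filter on low values, which also ended those of mt-Ts2 and mt-Tt (adjusted p = 0.0725, 0.0539 and 0.0723); the cause was not tested. Without both libraries numbered 3, mt-Tf and mt-Tt were lost (adjusted p = 0.0916 and 0.147).

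The differences of mt-Tv, mt-Ti and mt-Tm, none called, lay around 0. mt-Tm was at 0.027 with upper-quartile scaling, 0.011 with a filter of 5 TPM and 0.052 without both libraries numbered 3, where mt-Tv was at 0.062. With 1 library left out they ranged over -0.20 to 0.060 (mt-Tv), -0.25 to 0.10 (mt-Ti) and -0.12 to 0.084 (mt-Tm).

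On TPM as deposited, 1529 genes were lower and 1752 higher, against 2408 and 2305; transcription genes had 0 higher, processing genes 1 lower, modification genes 0 higher and 2 lower, and maintenance genes 3 higher and 1 lower. With upper-quartile scaling these lists had 2 transcription and 5 processing genes higher and 1 maintenance gene lower. Transcription genes had 2 higher with a pseudocount of 0.1, with a filter of 5 TPM (and then 5 processing genes higher) and with limma-voom. With no filter on low values there were 0 transcription, 2 modification and 3 maintenance genes higher. Without both libraries numbered 3 there were 2 transcription and 1 modification genes higher and 1 processing gene lower. With chromosome medians removed, 1570 genes were lower in all and 2 modification genes. Leaving out 1 library gave 0 to 3 transcription, 2 to 5 processing, 2 to 5 modification and 3 to 6 maintenance genes higher, and 1 to 4 maintenance genes lower. As a share of recovered reads in place of TPM, the groups differed by -0.86 percentage points for mRNAs and -0.00706 for tRNAs, a change of scale.

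No pairing by replicate number is stated, and libraries of the same number deviated together weakly (correlation 0.05, 0.10, 0.14 and 0.01 for numbers 1 to 4, across 14272 genes). With the replicate number as a block, 12 mRNAs and 13 tRNAs were lower and 2 transcription genes higher, and the calls of Tbrg4 and Osgepl1 were lost (adjusted p = 0.0515 and 0.0630). mt-Rnr1 and mt-Rnr2 were not analysed here, so the planned count of rRNAs was not run. In some library mt-Nd3, mt-Nd4l, mt-Atp8, mt-Tm and the tRNAs of the copied stretch had under 30 reads, and mt-Nd4l and mt-Atp8 were called lower all the same.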

Other observations

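Outside the copied stretch, members that did not pass lay in one region of the genome, a split chosen after the values were seen and given no test. Of the 7 members from position 1 to 3913 (mt-Tf, mt-Tv, mt-Tl1, mt-Nd1, mt-Ti, mt-Tq and mt-Tm), 3 were called lower, with differences of -0.82 to -0.01 and a median of -0.47. Of the 15 members from mt-Nd2, at position 3914, to mt-Tp, at 15422, all 15 were called lower, with differences of -1.09 to -0.57 and a median of -0.70. Over the 8 libraries, the members that did not pass had 192 to 339 reads (mt-Tv), 39 to 89 (mt-Ti), 38 to 100 (mt-Tq) and 25 to 38 (mt-Tm). In the second region the members with the fewest reads, mt-Tt and mt-Tw, had 37 to 89 and 42 to 101. The calls of mt-Tf in the first region and of mt-Tt and mt-Ts2 in the second did not hold without some single libraries. The part of read number in the split was not tested.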
